A study of Mus musculus with 24 samples.

Results

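The genes followed here in mouse liver encode 8 enzymes of fatty acid chain modification: the elongases Elovl1, Elovl2, Elovl3 and Elovl5, and the desaturases Fads1, Fads2, Fads3 and Scd2. These 8 genes were taken by name from 25746 genes counted in 24 liver libraries. Expression is given as CPM, counts scaled to a fixed library total. All 8 passed the filter on low expression (0.66 CPM or more in no fewer than 6 libraries), which kept 12330 genes for testing. The libraries came from 4 groups of 6 mice: male wildtype (mWT), male knockout (mKO), female wildtype (fWT) and female knockout (fKO). All animals were 12 weeks old, of the strain background labelled C57/BL6N, on standard chow, and fasted and anaesthetised for imaging before the liver was taken. KO mice were homozygous for a CRISPR/Cas9 deletion of the whole major urinary protein (Mup) cluster on chromosome 4, present in every cell, and KO and WT mice came from intercrosses of heterozygous animals. The KO line descended from a single male founder. No drug or diet was compared between the groups.

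As background, elongases of the Elovl family catalyse the first and rate-limiting condensation step by which a fatty acyl-CoA in the endoplasmic reticulum gains carbons from malonyl-CoA. Desaturases place double bonds with electrons that reach them from cytochrome b5. Liver uses both kinds of enzyme to turn dietary linoleic and α-linolenic acid into arachidonic and docosahexaenoic acid: Fads2 introduces the first new double bond, Elovl5 lengthens the product, Fads1 introduces the next double bond, and Elovl2 makes the longest polyunsaturated chains. Elovl1 and Elovl3 lengthen saturated and monounsaturated chains, and Scd2 is a Δ9 desaturase expressed mainly outside the liver, whose hepatic relative is Scd1. The function of Fads3 is less settled, and sphingoid bases have been described as its substrate.

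Total counts ranged from 15361901 to 26261394 per library. The labels were checked on the 22 Mup genes, which summed to 17018 to 37373 CPM in mWT and 3392 to 5255 CPM in fWT, against at most 10 counts in any mKO and at most 11 counts in any fKO library. The 5 hepatocyte markers (Alb, Apoa1, Ttr, Cps1, Serpina1c) summed to between 89500 and 144000 CPM in every library. All 5 male-biased and all 6 female-biased liver genes examined differed in the labelled direction in both genotypes (adjusted p under the threshold of 0.05, edgeR's quasi-likelihood test). These lists were chosen with earlier results of these data known, so their direction was not an independent check of the labels.

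Of the 8 genes, 5 lie on chromosome 19 (GRCm38, GENCODE M21). Fads3 (ENSMUSG00000024664, plus strand, 10041569 to 10060110), Fads2 (ENSMUSG00000024665, minus strand, 10062765 to 10101746) and Fads1 (ENSMUSG00000010663, plus strand, 10182888 to 10196877) form a cluster of 155 kb, with gaps of 2654 and 81141 bases between neighbours. Scd2 (ENSMUSG00000025203, plus strand, 44293674 to 44306864) and Elovl3 (ENSMUSG00000038754, plus strand, 46131897 to 46135694) are farther along the same chromosome. Elovl2 (ENSMUSG00000021364) is on chromosome 13, 41182381 to 41220405, minus strand, and Elovl5 (ENSMUSG00000032349) on chromosome 9, 77917364 to 77984519, plus strand. Elovl1 (ENSMUSG00000006390, plus strand, 118428093 to 118432953) shares chromosome 4 with the deleted Mup genes but starts 56.3 Mb beyond the end of their cluster. Exons of Elovl1 overlap those of Cdc20 on the other strand by 53 bases, and exons of Elovl3 overlap those of Pitx3 by 10 bases. The strand setting of the counting is not given in the sources used here, so reads from these stretches cannot be told apart.

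Per kilobase of exon, 4 of the genes made up most of the expression in WT liver. In mWT mice Fads2 stood first at 262 ± 32.9 CPM per kilobase (SD, n = 6), above all values of the next gene. It was followed by Elovl2 at 173 ± 24.6, Fads1 at 123 ± 13.2, Elovl5 at 115 ± 47.4 and Elovl3 at 87.7 ± 55.7 CPM per kilobase, and mice of neighbouring genes overlapped along this order. In fWT mice the order of the first 4 was the same, with Fads2 at 206 ± 47.8 and Elovl5 at 98.4 ± 17.7 CPM per kilobase, and Elovl3 came after Elovl1 at 2.84 ± 1.04 CPM per kilobase. Elovl1, which lengthens saturated chains in most tissues, was at 12.1 ± 1.2 and 10.9 ± 1.11 CPM per kilobase in mWT and fWT mice (SD, n = 6). Scd2 and Fads3 were lowest in all 4 groups, at 0.649 to 1.44 and 0.431 to 0.853 CPM per kilobase. Fads3 rested on 30 to 76 counts per library and Scd2 on 57 to 192, so counting error weighs more on these 2 genes than on the others, which apart from female Elovl3 had at least 462 counts.

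In mKO mice the order differed. Elovl3 stood first at 240 ± 87.6 CPM per kilobase (SD, n = 6), and its values overlapped those of Fads2 at 198 ± 16.3 CPM per kilobase. Elovl3 made up 11.3% of the summed expression per kilobase of the 8 genes in mWT and 26.2% in mKO mice, and 0.467% and 0.703% in fWT and fKO mice. The share of Fads2 was 33.8% in mWT, 21.6% in mKO, 33.9% in fWT and 33.1% in fKO mice.

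**Figure D1:**
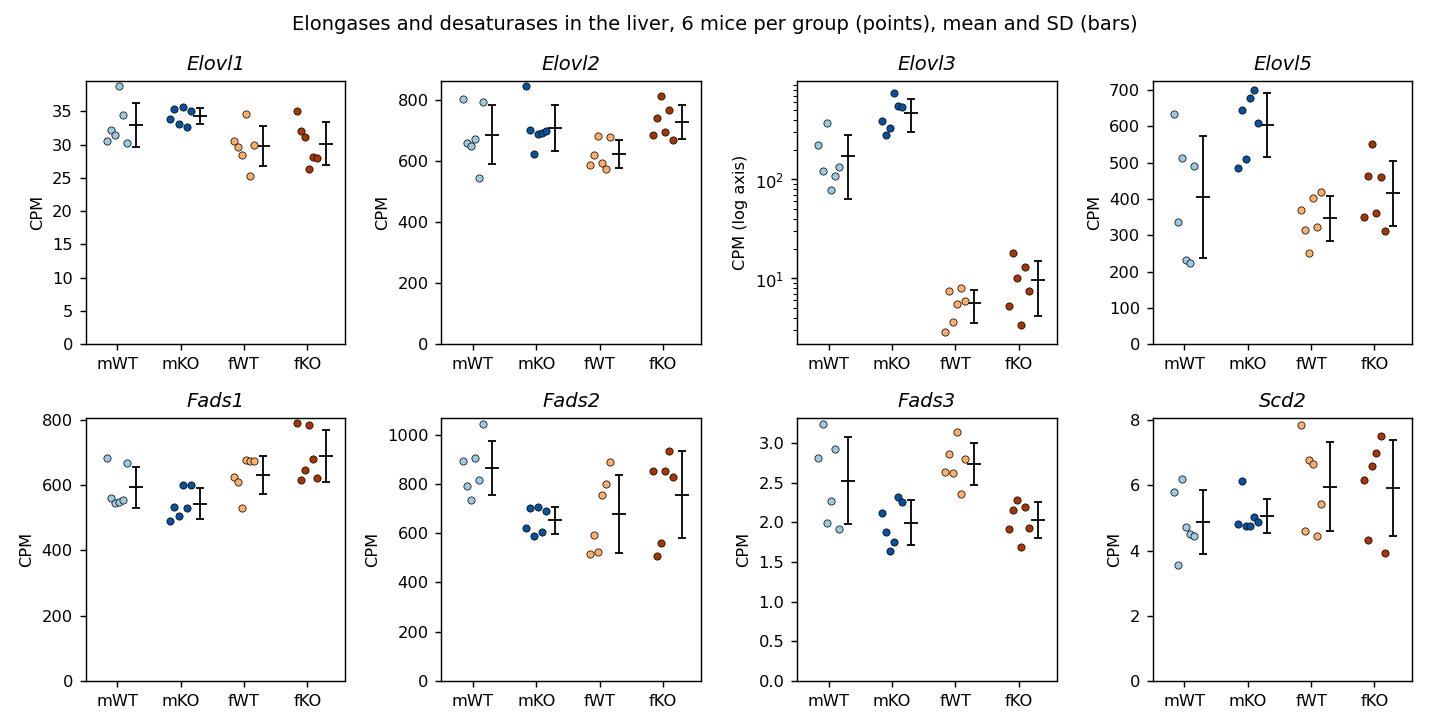
CPM of the 8 genes in each mouse (points, 6 per group) with the group mean and SD beside them; the axis of Elovl3 is logarithmic and the other axes start at 0. All 6 mKO mice lie below all 6 mWT mice for Fads2, all 6 fKO mice lie below all 6 fWT mice for Fads3, and males and females do not overlap for Elovl3.

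The first comparison asked how the Mup deletion changed these genes in males. None of the 8 passed an adjusted p of 0.05 in edgeR's quasi-likelihood test, where 0.211% of all tested genes did. That share was 26 genes, 22 of them lower in mKO mice, and 2 genes passed with the Mup genes removed. An unadjusted p under 0.05 was found for 4 of the 8 and for 10.6% of all genes. DESeq2 called 1 of them, Elovl3, among 142 genes in all. At the study's cut-off, an unadjusted p of 0.01, edgeR called 2 of 8, Elovl3 and Fads2, against 3.52% of all genes. In mKO mice 5 genes were numerically higher and 3 lower. The median of the 8 log2 fold changes was 0.05, compared to -0.00212 over all genes tested.

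Elovl3 is known for its daily rhythm and male bias in liver. The 6 mWT mice were at 224, 123, 374, 78.1, 107 and 133 CPM. The 6 mKO mice were at 389, 280, 333, 747, 554 and 539 CPM. Of the mKO mice, 4 lay above the highest mWT mouse, and the overlap came from mWT mouse 3, which at 374 CPM lay above 2 of the mKO mice. The mean was 2.74-fold higher in mKO mice, with an exact permutation p of 0.00649. The log2 fold change was 1.45 (SE 0.388, unadjusted p = 0.00123, adjusted p = 0.143 in edgeR's quasi-likelihood test, and 0.0347 to 0.212 over the other settings). Without a single mouse the log2 fold change ranged from 1.275 (without mKO mouse 4) to 1.83 (without mWT mouse 3). The adjusted p in edgeR then ranged from 0.0365 to 0.351 and was under 0.05 only without mWT mouse 3. Values of clock genes are given beside this difference. Of 12 tested, 3 (Arntl, Clock and Nr1d1) were numerically higher in mKO mice and the median log2 difference was -0.32. None passed an adjusted p of 0.05 in edgeR or DESeq2, while 4 had an unadjusted p under 0.05 in edgeR, against 10.6% of all genes, and 2 were under 0.01, Per2 (-1.11, SE 0.350) and Hlf (-0.35, SE 0.121). Per2 ranged from 20.7 to 46.8 CPM in mWT and from 11.6 to 23.0 CPM in mKO mice, and Arntl from 0.636 to 6.22 and from 3.37 to 10.2 CPM. Their part in the Elovl3 result was not tested, and the hour at which each liver was taken is not given in the labels.

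Elovl5, the elongase of polyunsaturated chains of intermediate length, followed the direction of Elovl3. Its mWT mice were at 635, 338, 514, 233, 222 and 491 CPM, and its mKO mice at 486, 644, 511, 679, 701 and 609 CPM. Of the mKO mice, 3 lay above the highest mWT mouse and all 6 above the mWT median. The mean was 1.49-fold higher (log2 fold change 0.58, SE 0.213, unadjusted p = 0.0125, adjusted p = 0.302 in edgeR; exact permutation p = 0.0346). On all mice the unadjusted p was under the study's cut-off with DESeq2 (0.00406) and with non-robust dispersions in edgeR (0.00933). It was above the cut-off in the other edgeR settings, at 0.0423 at most. In edgeR without a single mouse it ranged from 0.00127 to 0.0335. It was under 0.01 only without mWT mouse 1, 3 or 6 or mKO mouse 1. The coefficient of variation was 41.2% in mWT and 14.6% in mKO mice. Elovl2, which acts after Elovl5 on the same chains, ranged from 544 to 804 CPM in mWT and from 622 to 847 CPM in mKO mice (log2 fold change 0.04, SE 0.0874). Elovl1 ranged from 30.2 to 38.9 and from 32.7 to 35.7 CPM (log2 fold change 0.06, SE 0.0768). Neither of these 2 elongases differed beyond the spread between mice (exact permutation p = 0.639 and 0.331).

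Because Elovl5 was the member with a window in the RefSeq promoter table whose level was numerically highest relative to mWT mice, its upstream sequence is given here, together with that of Fads3, the gene that was numerically lower in KO mice of both sexes. Windows of 250 bases before to 50 bases after a start were available for 5 of the 8 genes (RefSeq, GRCm38.p6). The 249 bases shown lie on chromosome 9, 77917115 to 77917363, plus strand, for Elovl5, and on chromosome 19, 10041298 to 10041546, plus strand, for Fads3. Capitals mark 2 searched letter strings on either strand, CCAAT (the core of the binding sequence of NF-Y) and CACGTG (an E-box, bound by SREBP-1, ChREBP and the clock proteins); the matches do not overlap.
Elovl5: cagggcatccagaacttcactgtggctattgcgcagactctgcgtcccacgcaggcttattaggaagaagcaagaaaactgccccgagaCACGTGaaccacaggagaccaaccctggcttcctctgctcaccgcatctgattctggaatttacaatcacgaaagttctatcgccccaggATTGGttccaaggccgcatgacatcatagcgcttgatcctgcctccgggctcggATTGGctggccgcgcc
Fads3: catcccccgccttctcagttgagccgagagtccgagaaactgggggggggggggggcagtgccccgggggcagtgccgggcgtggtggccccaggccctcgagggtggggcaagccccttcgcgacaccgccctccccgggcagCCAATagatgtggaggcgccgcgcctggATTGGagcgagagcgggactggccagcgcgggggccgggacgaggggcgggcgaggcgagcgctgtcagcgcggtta

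The Elovl5 window held CACGTG at 1 place and CCAAT at 2, and the Fads3 window held CCAAT at 2 places and CACGTG at none. Among all 32851 windows of the same length in the table, 37.4% held CCAAT and 7.15% held CACGTG. The windows of Elovl2 and Fads2 held neither, and the upstream window of Elovl1 held CCAAT at 1 place. A search for AGGTCA, a core sequence bound by nuclear receptors (in 16.3% of all windows), and for TCACNCCAC, letters of a sterol regulatory element (in 1.24%), gave 1 match, of AGGTCA, in the second Elovl1 window. These matches describe letters only.

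Fads2, the Δ6 desaturase that opens the polyunsaturated pathway, was the only one of the 8 genes whose male groups did not overlap, as did 1.09% of all genes tested. Its mWT mice were at 894, 791, 735, 906, 814 and 1042 CPM. Its mKO mice were at 620, 702, 587, 706, 604 and 691 CPM, all below the lowest mWT mouse. The mean in mKO mice was 0.754 times that in mWT mice (log2 fold change -0.41, SE 0.144, unadjusted p = 0.00926, adjusted p = 0.279 in edgeR; exact permutation p = 0.00216, the smallest that 6 against 6 mice allow). The unadjusted p lay close to the cut-off. Over the 11 other settings of edgeR and DESeq2 it ranged from 3.21e-04 to 0.0105 and stayed under 0.01 in 8. The highest values came with other filters, and the adjusted p was 0.0586 or more in all 11. Among the 12 edgeR fits without a single mouse the unadjusted p stayed under 0.01 only without mWT mouse 2 or mWT mouse 3, with a range of 0.00649 to 0.0288.

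Fads1, the Δ5 desaturase, ranged from 546 to 682 CPM in mWT and from 490 to 601 CPM in mKO mice, with 4 mKO mice below all mWT mice, and its log2 fold change was -0.13 (SE 0.0856, adjusted p = 0.65 in edgeR). Fads3 ranged from 1.91 to 3.24 CPM in mWT and from 1.63 to 2.32 CPM in mKO mice, all 6 below the mWT median, with a log2 fold change of -0.34 (SE 0.145, unadjusted p = 0.026, adjusted p = 0.379 in edgeR, and unadjusted p = 0.00958 without mWT mouse 6). The 3 genes of the Fads cluster were thus all numerically lower in mKO mice, but their changes were unequal. Scd2 ranged from 3.55 to 6.21 CPM in mWT and from 4.74 to 6.13 CPM in mKO mice (log2 fold change 0.05, SE 0.168). Its groups overlapped widely (exact permutation p = 0.628).

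The same question was asked in females. No gene of the 8 passed an adjusted p of 0.05 in edgeR's quasi-likelihood test or in DESeq2, against 0.0892% of all genes in edgeR, and 2 had an unadjusted p under 0.05, as did 4.87% of all genes. The 0.0892% were 11 genes, all lower in fKO mice, and 0 genes passed with the Mup genes removed. At the study's cut-off 1 of 8 was called, Fads3, compared to 0.876% of all genes. In fKO mice 6 genes were numerically higher and 2 lower. The median of the 8 log2 fold changes was 0.14, beside -0.00264 over all genes.

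Fads3 was the only one of the 8 whose female groups did not overlap, which 0.341% of all genes showed. The lowest, median and highest fWT values were 2.36, 2.72 and 3.13 CPM. In fKO mice they were 1.68, 2.04 and 2.29 CPM, so that every fKO mouse lay below the lowest fWT mouse. The mean in fKO mice was 0.74 times that in fWT mice (log2 fold change -0.43, SE 0.140, unadjusted p = 0.00498, adjusted p = 0.929 in edgeR; exact permutation p = 0.00216). The unadjusted p ranged from 0.00364 to 0.0148 without a single mouse and passed above 0.01 without fWT mouse 4, fKO mouse 1 or fKO mouse 4. Over both sexes its log2 fold change was -0.39 (SE 0.101, unadjusted p = 7.26e-04, adjusted p = 0.197 in edgeR). The 5 Kupffer cell markers lay in the same direction in females: 0 of the 5 were numerically higher in fKO mice, the median log2 difference was -0.32, and none passed an adjusted p of 0.05 in edgeR or DESeq2. They had a summed level of 117 to 218 CPM in fWT and 99.8 to 172 CPM in fKO mice. This direction was not particular to Kupffer cells. Of the endothelial markers 0 of 5, and of the stellate cell or fibroblast markers 1 of 5, were numerically higher in fKO mice. Over all cell types 8 of 28 tested markers were. In males 3 of the 5 Kupffer cell markers were numerically higher in mKO mice, with sums of 65.2 to 132 CPM in mWT and 63.7 to 177 CPM in mKO mice. The part of such cells in the Fads3 result was not tested, and in bulk liver fewer cells of a type and less RNA per cell cannot be told apart.

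Elovl2 was numerically higher in females without Mup genes. Its fWT mice were at 588, 619, 683, 593, 574 and 679 CPM, and its fKO mice at 684, 741, 813, 696, 766 and 670 CPM. Of the fKO mice, 5 lay above the highest fWT mouse. The mean was 1.17-fold higher (log2 fold change 0.23, SE 0.0874, unadjusted p = 0.0156, adjusted p = 0.929 in edgeR; exact permutation p = 0.00866).

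In the other 6 genes the female groups overlapped more widely. Elovl3 ranged from 2.86 to 8.07 CPM in fWT and from 3.42 to 18.0 CPM in fKO mice, where 3 mice, at 18.0, 13.1 and 10.2 CPM, exceeded all fWT mice (exact permutation p = 0.16). The 5 male-biased liver genes were also all numerically higher in fKO mice by a median log2 difference of 0.71. Of these 5, 1, Cyp2d9, was under an unadjusted p of 0.01 in edgeR, against 0.876% of all genes. Of the 6 female-biased liver genes, 3 were numerically higher in fKO mice, with a median log2 difference of -0.05. The part of these sex-biased genes in the Elovl3 values was not tested. Elovl5 ranged from 252 to 419 CPM in fWT and from 312 to 551 CPM in fKO mice (log2 fold change 0.26, SE 0.212). Fads2 had the widest relative spread among the abundant genes in females, from 513 to 890 CPM in fWT and from 507 to 933 CPM in fKO mice (log2 fold change 0.16, SE 0.144). Fads1 ranged from 531 to 677 and from 615 to 792 CPM (log2 fold change 0.13, SE 0.0856). Scd2 and Elovl1 had log2 fold changes of -0.01 (SE 0.162) and 0.01 (SE 0.0767).

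**Figure D2:**
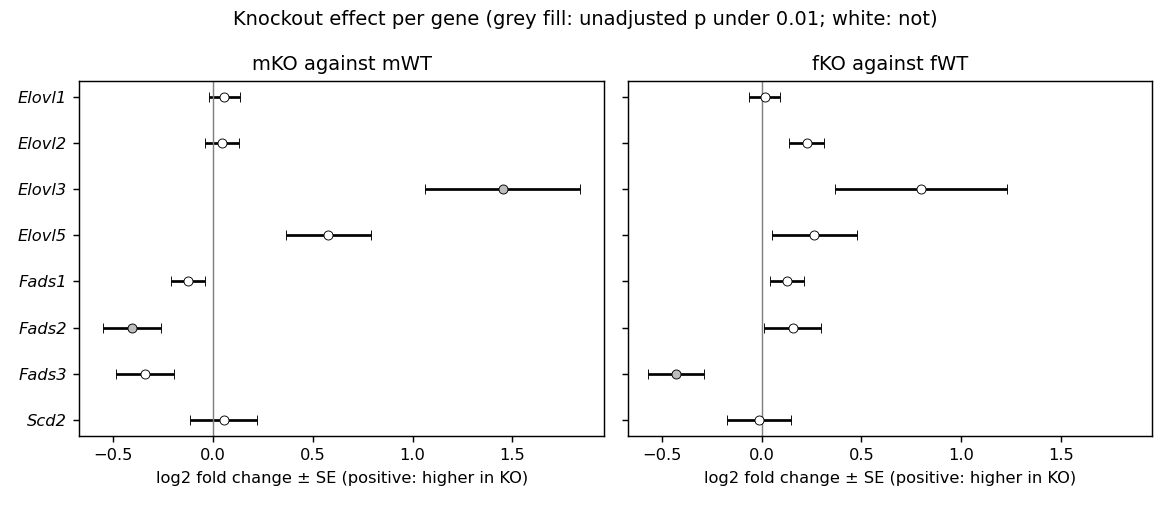
Log2 fold change (horizontal axis, positive where KO is higher) with its standard error for the 8 genes in males (left) and females (right); grey points had an unadjusted p under 0.01 and none of the points passed an adjusted p of 0.05. Elovl3 stood at 1.45 in males and 0.80 in females, Fads2 at -0.41 and 0.16, and Fads3 at -0.34 and -0.43.

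Whether the effect of the deletion differed between males and females was tested with an interaction term. None of the 8 genes passed an adjusted p of 0.05 in edgeR (0.00811% of all genes did) or in DESeq2. None passed an unadjusted p of 0.01 in edgeR, against 1.16% of all genes, and 2 were under 0.05, as were 5.96% of all genes. These 2 were the neighbours Fads2 (-0.56 on the log2 scale, male minus female effect, SE 0.204, unadjusted p = 0.0106, adjusted p = 0.816 in edgeR) and Fads1 (-0.25, SE 0.121, unadjusted p = 0.046, adjusted p = 0.829). Without a single mouse the unadjusted p of Fads2 ranged from 0.0019 to 0.0251 and was under 0.01 without mWT mouse 3, fWT mouse 4, 5 or 6, or fKO mouse 2 or 3. For Elovl3 the difference was 0.65 (SE 0.576, unadjusted p = 0.271, adjusted p = 0.915 in edgeR). For Fads3 it was 0.09 (SE 0.202) and for Elovl5 0.31 (SE 0.300), each smaller than or close to its standard error. A difference between the sexes in the effect on any of these genes was thus not shown.

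Averaged over both sexes, the effect of the deletion was under an unadjusted p of 0.01 for 2 of the 8 genes, Elovl3 and Fads3, where 2.83% of all genes were. None passed an adjusted p of 0.05 in edgeR, against 0.17% of all genes. That share was 21 genes, 17 of them lower in KO mice, and 1 gene passed with the Mup genes removed. An unadjusted p under 0.05 was found for 4 of the 8 and for 9.57% of all genes, and DESeq2 called 1 of the 8, Elovl3, among 48 genes in all. The mean effect was 1.13 for Elovl3 (log2, SE 0.289, unadjusted p = 8.60e-04, adjusted p = 0.201 in edgeR), 0.42 for Elovl5 (SE 0.150, unadjusted p = 0.0102) and 0.14 for Elovl2 (SE 0.0618, unadjusted p = 0.0377). For Elovl5 the unadjusted p lay at the cut-off and was 0.00289 with DESeq2. For Fads2, whose male and female values pointed in opposite directions, it was -0.13 (SE 0.102).

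Males and females were then compared within each genotype. In WT mice 1 of the 8 genes, Elovl3, passed an adjusted p of 0.05 in edgeR, where 17.3% of all genes did, 8.51% higher in males and 8.81% higher in females. The 6 mWT mice, from 78.1 to 374 CPM, did not overlap the 6 fWT mice, from 2.86 to 8.07 CPM; 7.71% of all genes had such separate groups. The mean of Elovl3 was 30.9-fold higher in mWT mice (log2 fold change 4.96, SE 0.464, adjusted p = 1.17e-07 in edgeR), which placed it 26th by fold among the 1049 genes higher in males. Outside the liver Elovl3 is known from brown fat and skin glands. The 5 adipocyte markers summed to 4.90 to 7.97 CPM in mWT and to at most 5.19 CPM in fWT mice, with Lep at 0 counts in both groups and Adipoq at 0 counts in all mWT mice. The 1 of the 5 that passed the filter, Adrb3, was higher in males in both genotypes (log2 fold change 1.10 in WT and 0.92 in KO mice, SE 0.277 and 0.278, adjusted p = 0.00713 and 0.0264 in edgeR). The part of adipocytes in the Elovl3 difference was not tested.

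The other 7 genes differed little between mWT and fWT mice. The nearest to the threshold was Fads2, 1.27-fold higher in mWT mice on average, with 3 mWT mice above all fWT mice (log2 fold change 0.35, SE 0.144, unadjusted p = 0.0232, adjusted p = 0.0982 in edgeR). Without fWT mouse 6, the highest of the fWT mice at 890 CPM, its adjusted p was 0.0383. Scd2 was numerically lower in males (log2 fold change -0.29, SE 0.166, adjusted p = 0.239) and Elovl5 numerically higher (0.23, SE 0.212, adjusted p = 0.512). Elovl1, Elovl2, Fads1 and Fads3 had log2 differences between -0.12 and 0.15.

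In KO mice 2 of the 8 genes passed an adjusted p of 0.05 in edgeR, compared to 14.4% of all genes. Elovl3 was again higher in males (log2 fold change 5.61, SE 0.470, adjusted p = 2.45e-08), 12th by fold among 895 genes, 7.26% of those tested, that were higher in mKO than in fKO mice. Fads1 was lower in males, as were 7.13% of all genes. Its mKO mice were at 490, 534, 506, 601, 529 and 599 CPM. Its fKO mice were at 792, 615, 646, 786, 680 and 622 CPM, all above the highest mKO mouse (log2 fold change -0.35, SE 0.0857, adjusted p = 0.00644 in edgeR; exact permutation p = 0.00216). Elovl3 and Fads1 were thus the 2 of 8 genes whose KO groups did not overlap, and 7.26% of all genes had such separate groups. For Fads1 the same contrast in WT mice gave -0.09 (SE 0.0856, adjusted p = 0.509), and the interaction, which is also the difference between these 2 values, is given above.

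Elovl5 was numerically 1.45-fold higher in mKO than in fKO mice (log2 fold change 0.54, SE 0.213, adjusted p = 0.0966 in edgeR; exact permutation p = 0.0108), with 4 mKO mice above all fKO mice. It passed with DESeq2 (adjusted p = 0.0463) and in edgeR fitted on the 2 KO groups alone (adjusted p = 0.0155). Elovl1 was numerically 1.14-fold higher (0.19, SE 0.0767, adjusted p = 0.107, and 0.0432 without fKO mouse 1). Fads2 stood at -0.21 (SE 0.144, adjusted p = 0.347), opposite in sign to its difference in WT mice. Markers of cell types, among them the 5 of hepatocytes, moved with sex (calls at an adjusted p under 0.05, edgeR). Of 28 tested markers, 3 were higher and 8 lower in mWT than in fWT mice, against 8.51% and 8.81% of all genes. In KO mice 6 were higher and 4 lower in males, against 7.26% and 7.13% of all genes. Those higher in males included the hepatocyte markers Serpina1c in both genotypes and Ttr in KO mice. The 5 erythroid markers summed to 142 to 232 CPM in the males of both genotypes and 34.1 to 55.4 CPM in the females, and the 5 Kupffer cell markers to 63.7 to 177 and 99.8 to 218 CPM. Of the 3 erythroid markers tested, Alas2 had by far the largest difference (log2 fold change 3.44 in WT and 3.15 in KO mice), while Hba-a1 and Hbb-bs stood at 0.44 and 0.31 in WT and at 1.14 and 0.91 in KO mice. The part of these cells in the sex differences was not tested.

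**Figure D3:**
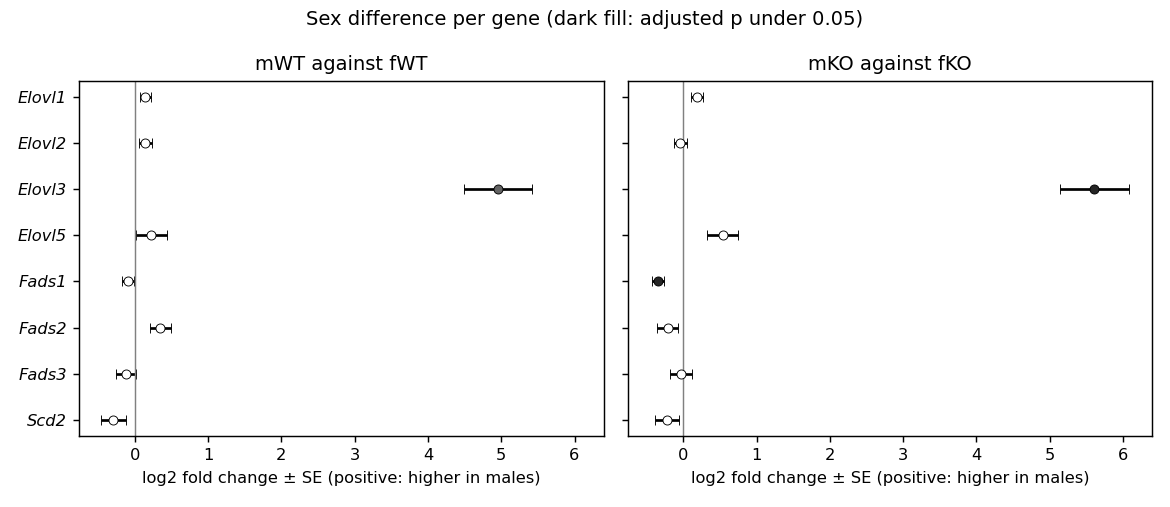
Log2 fold change between males and females (horizontal axis, positive where males are higher) with its standard error for the 8 genes in WT (left) and KO mice (right); filled points had an adjusted p under 0.05. Elovl3 stood at 4.96 in WT and 5.61 in KO mice, Fads1 was filled in KO mice at -0.35, and the other points lay between -0.29 and 0.54.

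Ratios of 2 genes within a mouse do not depend on how a library was scaled. A set of 4 such ratios of counts were compared in 4 contrasts, 16 tests in all, with exact permutation tests on the log2 ratio and Benjamini-Hochberg adjustment over the 16. The ratio of Fads1 to Fads2, the Δ5 over the Δ6 step, was 0.763, 0.709, 0.742, 0.604, 0.684 and 0.641 in mWT and 0.79, 0.762, 0.862, 0.852, 0.876 and 0.867 in mKO mice. In mKO mice 5 of the 6 values lay above the highest mWT value (1.21-fold, exact permutation p = 0.00433, adjusted p = 0.0115). In females it was 0.961 ± 0.162 in fWT and 0.949 ± 0.2 in fKO mice (SD, n = 6), without a detectable difference (exact permutation p = 0.855). The mWT ratio was also 0.724 times the fWT ratio (exact permutation p = 0.00433, adjusted p = 0.0115), and no difference was detected between mKO and fKO mice (exact permutation p = 0.26).

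The ratio of Elovl5 to Elovl2, which act in sequence, was 0.578 ± 0.189 in mWT and 0.864 ± 0.159 in mKO mice (SD, n = 6). In mKO mice 5 of the 6 values were above all mWT values, and mouse 1, at 0.575, lay among them (1.54-fold, exact permutation p = 0.0238, adjusted p = 0.0423). This call was lost in 9 of the 12 settings without a single mouse, all but those without mKO mouse 1, mWT mouse 1 or mWT mouse 3, with an adjusted p of up to 0.0846 (exact permutation tests). In fWT and fKO mice the ratio was 0.56 ± 0.11 and 0.567 ± 0.08 (SD, n = 6; exact permutation p = 0.855). The mKO ratio was also 1.51-fold above the fKO ratio (exact permutation p = 0.00866, adjusted p = 0.0198), whereas mWT and fWT mice did not differ detectably (exact permutation p = 0.983). The ratio of Elovl3 to Elovl1 was 2.86-fold higher in mKO than in mWT mice (exact permutation p = 0.0108, adjusted p = 0.0216). The log2 fold change of Elovl1 was only 0.06, so this ratio mainly restated the Elovl3 change. That change was not called in edgeR (adjusted p = 0.143). In females the ratio was 1.56-fold higher in fKO mice, without a detectable difference (exact permutation p = 0.165, adjusted p = 0.264). The male ratio was 25.7-fold above the female ratio in WT and 47.0-fold in KO mice (exact permutation p = 0.00216, adjusted p = 0.00864 each). Whether the male and female changes in these ratios differ was not tested.

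Scd2 was a minor Δ9 desaturase transcript in every liver. Its counts were between 0.000257 and 0.000683 of those of Scd1 in mWT mice and between 0.000278 and 0.000441 in mKO mice. In fWT and fKO mice they were between 0.000712 and 0.00229 and between 0.000722 and 0.00273. The male ratios lay below all female ratios in both genotypes (0.323 and 0.294 times, exact permutation p = 0.00216 and adjusted p = 0.00864 each), while Scd1, unlike Scd2, was higher in males (log2 fold change 1.24 in WT and 1.43 in KO mice, SE 0.370 and 0.372, adjusted p = 0.0242 and 0.0117 in edgeR). The deletion left this ratio without a detectable difference in either sex (exact permutation p = 0.394 in males and 0.857 in females).

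**Figure D4:**
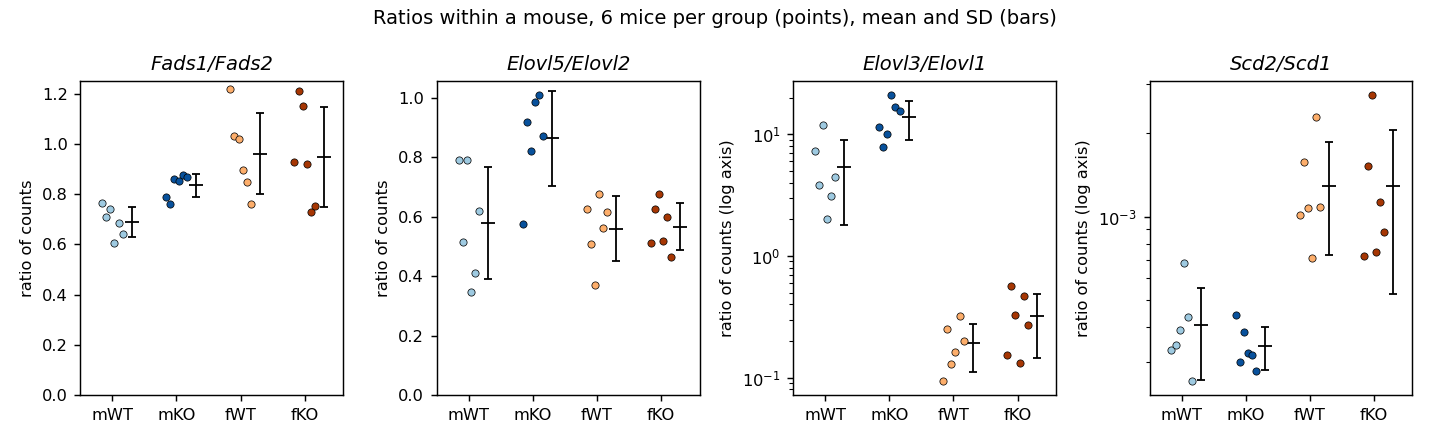
Ratios of counts of 2 genes within each mouse (points, 6 per group) with the group mean and SD; the axes of Elovl3/Elovl1 and Scd2/Scd1 are logarithmic and the other 2 start at 0. For 5 of 6 mKO mice the point lies above all mWT points for Fads1/Fads2 and for Elovl5/Elovl2, and males lie below all females for Scd2/Scd1.

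Variation among mice of the same group was compared between genes after each group mean was subtracted, so that differences between groups play no part. Of the 28 pairs, 2 passed an adjusted p of 0.05 by both Pearson's r and Spearman's rho (permutation tests over 24 mice, Benjamini-Hochberg over the 28 pairs). The tests treated the 24 centred values as independent and made no allowance for the subtracted group means. Their p-values are therefore too small, and whether either pair passes with such an allowance was not tested. The neighbours Fads1 and Fads2 varied together (r = 0.656, p = 7.20e-04, adjusted p = 0.0202; rho = 0.617, p = 0.00167, adjusted p = 0.0244). The relation was 0.726 among the 12 males and 0.682 among the 12 females, and 0.668 without the 2 mice farthest from the median. Among all 12329 other genes tested, Fads2 ranked 15th by r with Fads1, while Fads1 ranked 56th by r with Fads2. Fads3, the third gene of this cluster, did not share the pattern (r = -0.15 with Fads1 and -0.20 with Fads2, adjusted p = 0.863 for both).

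Elovl3 and Elovl5, on different chromosomes, formed the second pair (r = 0.584, p = 0.00267, adjusted p = 0.0374; rho = 0.613, p = 0.00174, adjusted p = 0.0244). Their r was 0.717 in the 12 males, 0.442 in the 12 females and 0.556 without the 2 farthest mice. Within single groups r was uneven, at 0.789 in mWT, 0.515 in mKO, 0.112 in fWT and 0.642 in fKO mice. Elovl5 ranked only 248th among all genes by r with Elovl3, so many other genes followed Elovl3 more closely. The remaining 26 pairs had adjusted p values of 0.136 or more by r, the nearest being Elovl2 with Elovl5 at r = 0.493.

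**Figure D5:**
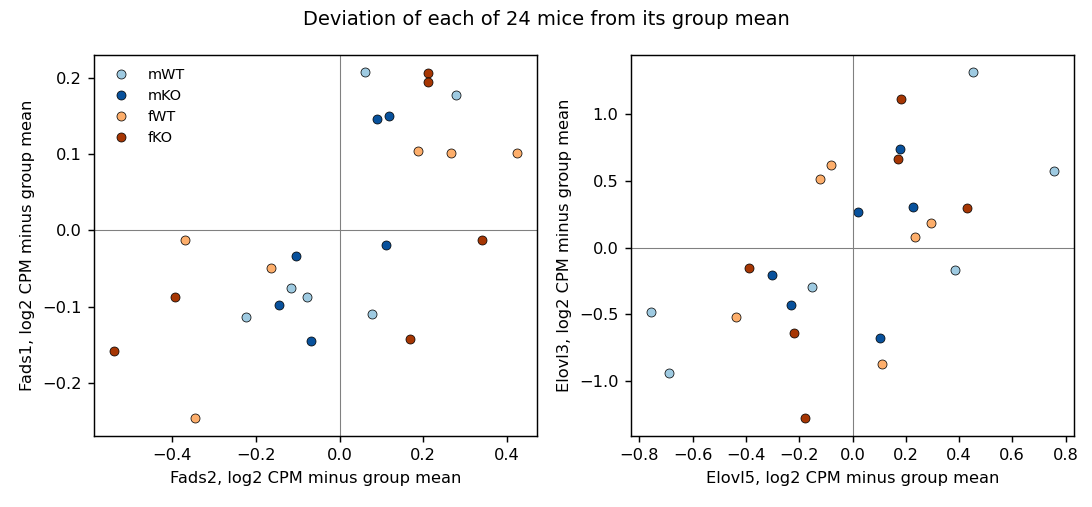
Deviation of each of the 24 mice from its group mean in log2 CPM, for Fads1 against Fads2 (left, r = 0.656) and Elovl3 against Elovl5 (right, r = 0.584). Colours mark the 4 groups; in both panels most points lie on the same side of 0 on both axes.

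The genes most like each of the 8 by the same measure, Pearson's r of group-centred log2 CPM over 24 mice, are given as a description. For Elovl3 they were Phospho1 (r = 0.814), Amt (0.782) and Naa35 (0.766), and for Elovl5 they were Rdh11 (0.866), Aqp8 (0.831) and Scpep1 (0.829). Elovl2 was followed by Syt9 (0.776), Lpl (0.746) and Slc7a8 (0.736), and Elovl1 by Cldn3 (0.725), Mpp4 (0.714) and Unkl (0.706). Among the desaturases, the genes most like Fads2 included Prss8 (0.816) and Ociad2 (0.767), and Fads1 was most like Ropn1l (0.742), Nkiras2 (0.725) and Dele1 (0.724). Fads3 was nearest to Pik3cg (0.749), Il4ra (0.729) and Stx2 (0.705), and Scd2 to Mtmr11 (0.796), Dlg4 (0.783) and Epb41l3 (0.76). None of the 8 genes was among the 3 most alike of another.

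The wider pathway was read from 8 lists with 51 genes, 45 of them tested: other elongases and desaturases, partners of the elongation cycle, cytochrome b5 and its reductase, acyl-CoA synthetases, suppliers of malonyl-CoA and palmitate, peroxisomal enzymes of docosahexaenoic acid formation, users of the chains, and regulators. In males 26 of the 45 were numerically higher in mKO mice, and the median log2 difference was 0.02. None passed an adjusted p of 0.05 in edgeR, and DESeq2 called 1, Insig2. Of the 45, 11 had an unadjusted p under 0.05 (10.6% of all genes did) and 4 were under 0.01 (3.52% of all genes). Insig2, which retains the SREBP complex in the endoplasmic reticulum, ranged from 75.4 to 299 CPM in mWT and from 244 to 446 CPM in mKO mice (log2 fold change 1.08, SE 0.294, unadjusted p = 0.00144, adjusted p = 0.146 in edgeR). The other 3 under 0.01 were Hsd17b12, a reductase of the elongation cycle (0.22, SE 0.0723), Acaa1b, a peroxisomal thiolase (0.38, SE 0.122), and Acsl4, a synthetase that prefers arachidonic acid (-0.36, SE 0.117). Elovl6, the elongase of palmitate, ranged from 119 to 245 CPM in mWT and from 84.8 to 146 CPM in mKO mice (log2 fold change -0.57, SE 0.264, unadjusted p = 0.0415, adjusted p = 0.449 in edgeR).

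In females 27 of the 45 pathway genes were numerically higher in fKO mice, where the median log2 difference was 0.04, and none had an unadjusted p under 0.05 in edgeR or passed an adjusted p of 0.05 in edgeR or DESeq2. Between the sexes, 9 of the 45 were higher and 2 lower in mWT than in fWT mice, and 10 higher and 3 lower in mKO than in fKO mice (adjusted p under 0.05, edgeR). Those higher in males in both genotypes included Scd1, Hsd17b12, Cyb5r3, Hsd17b4, Acaa1b and Scp2 (1.48 in WT and 1.43 in KO mice on the log2 scale, SE 0.0910 and 0.0909), a peroxisomal thiolase and sterol carrier. Abcd2, a peroxisomal importer of very long chains, was lower in males in both (-2.56 and -2.90, SE 0.266 and 0.269), as was the ceramide synthase Cers6 (-1.09 and -1.50, SE 0.202 and 0.203). Among the peroxisomal enzymes, 4 of 7 were higher and 1 lower in mWT than in fWT mice, and 5 of 7 higher and 1 lower in mKO than in fKO mice. Over all genes, 8.51% were higher and 8.81% lower in mWT mice, and 7.26% higher and 7.13% lower in mKO mice. None of the 4 suppliers of malonyl-CoA and palmitate, Acly, Acaca, Acacb and Fasn, passed in any of the 6 comparisons.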

How the data were processed

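Liver RNA of 24 mice was sequenced by the authors in a single multiplex with stranded mRNA libraries. Per the labels, reads were trimmed with fastp 0.20 and aligned with STAR 2.7a to GRCm38.p6, and the deposited values are raw counts per Ensembl gene. Of 25746 identifiers, 25635 matched GENCODE M21. Groups came from the labels. The 8 genes and all lists were chosen with earlier results of these data known.

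Counts were fitted in edgeR 4.0.16 (R 4.3.3) with TMM scaling, robust dispersions and the quasi-likelihood F test, in 1 model of the 4 group means. The filter on low expression was 0.66 CPM in 6 libraries, and p-values were adjusted over 12330 genes. Calls are given at the study's unadjusted p under 0.01 and at an adjusted p under 0.05. Values in CPM use the TMM scaling. Single genes (32 tests, p-values not adjusted) and ratios (0.5 added to each count) were compared by two-sided exact permutation tests in Python 3.11.15. The scripts were tested on simulated data. All 8 genes, the 3 most alike genes of each, and listed genes past a threshold or set beside a result are named, apart from a few that are not reported here. Alternatives comprised DESeq2 1.42.0, other scalings, filters and dispersions, removal of the Mup genes, a block on mouse number and leaving out each mouse. No 2 libraries of the same group agreed within sampling noise.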

Additional observations from a re-analysis of the deposited data

Results flagged for a closer look

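In 48 groups of 6 mice examined for a single distant value (8 genes and 4 ratios in 4 groups), 2 had one, both in mKO mice, by Dixon's test at the 95% level. Chance alone gives about 5% of groups. Elovl2 in mKO mouse 1 was at 846.54 CPM, while the nearest other mKO mouse was at 701.97 CPM. Scd2 in mKO mouse 2 was at 6.1263 CPM, and the nearest other mKO mouse at 5.0358 CPM.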

How the results depend on the processing

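Elovl3 in the sex comparisons and Fads1 between mKO and fKO mice kept their direction and their call in edgeR under every setting tried. With DESeq2, 142 genes passed an adjusted p of 0.05 for the KO effect in males (26 in edgeR), 18 in females (11), 10 for the interaction (1) and 48 for the mean over both sexes (21). The called members were then 1 (males) and 1 (mean), and at an unadjusted p under 0.01 they were 3 in males and 3 for the mean (Elovl5 added in both), 2 in females (Elovl2 added) and 1 for the interaction. Elovl5 between mKO and fKO mice passed adjustment with DESeq2 and with the 2 groups alone. Without the Mup genes the counts were 2, 0 and 1 for males, females and the mean. Fitted on the compared groups alone, 49 genes passed in males and 2 members were under 0.01 in females. Without the filter, with 0.66 CPM in 2 libraries and with filterByExpr, 1 member was under 0.01 in males, because Fads2 crossed the cut-off.

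The mouse number was no pairing: same-numbered mice are different animals, and at most 2 of 6 pairs in any contrast deviated together with r over 0.1. With the number as a replicate block, 2 members passed in the sex difference in WT (Fads2 at 0.37, adjusted p = 0.032 in edgeR), 1 member was under 0.01 for the interaction (Fads2), and the mean effect on Fads1 was 0.00054. The last value, near 0 throughout, also changed sign with DESeq2 (0.00436), its size factors (0.00438), no filter (0.0025), the 2-library filter (0.0017), filterByExpr (0.00303) and the Mup genes removed (0.00037). With total counts alone, Elovl1 in females was at -0.033 and the mean effect on Scd2 at -0.011.

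Leaving out each mouse gave 284 (without mWT mouse 5) to 525 genes under 0.01 and 19 to 59 past adjustment in males (40 and 59 without mWT mouse 2 and 1), 225 (without fKO mouse 2) to 472 under 0.01 for the mean, 1 to 3 members under 0.01 in males, 0 to 1 in females and for the interaction, 0 to 1 past adjustment in males and for the mean (1 without mWT mouse 3, Elovl3), and 1 to 2 for sex in WT (2 without fWT mouse 6). Members near 0 changed sign: in males Elovl2 (-0.014 to 0.095) and Scd2 (-0.022 to 0.13), in females Elovl1 (-0.033 to 0.063) and Scd2 (-0.10 to 0.081), in the interaction Elovl1 (-0.0064 to 0.095) and Scd2 (-0.028 to 0.15), in the mean Fads1 (-0.023 to 0.021) and Scd2 (-0.022 to 0.067), and between KO sexes Fads3 (-0.083 to 0.019). So did the log2 ratios Fads1/Fads2 (-0.10 to 0.043), Elovl5/Elovl2 (-0.083 to 0.092) and Scd2/Scd1 (-0.32 to 0.11) in females and Elovl5/Elovl2 between WT sexes (-0.11 to 0.14). The cause was not tested. Over the 16 ratio tests, readjusted without each mouse or with 1 count added, the male KO effect on Elovl5/Elovl2 lost its call in 9 settings (adjusted exact permutation p 0.0099 to 0.0846), and no other ratio changed its side of 0.05, nor did a pair of the covariation with DESeq2 size factors. Counting depth limits Fads3 most.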
